A study of Mus musculus with 2 samples.

Results

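The genes described here are 6 mouse genes known as oncofetal, that is, active in embryonic tissue, low in most adult tissue and active again in many tumours. They are the RNA-binding protein genes Igf2bp1, Igf2bp2, Igf2bp3 and Lin28b and the chromatin protein genes Hmga1 and Hmga2. They were chosen by name, and all 6 had a row among the 23276 gene symbols of the table. Heart ventricles were taken at stage E12.5 of gestation from wild-type (WT) embryos and from Fendrr KO embryos, which lack the long non-coding RNA Fendrr after homologous recombination of both alleles. All embryos, of both genotypes, had a C57BL/6 x 129SV background and came from tetraploid complementation, in which the embryo itself derives from injected embryonic stem cells and the tetraploid host contributes mainly to extra-embryonic tissue. RNA of 4 pooled ventricles per genotype was freed of ribosomal RNA and then used for 1 strand-specific library. The question the comparison addresses here is whether these markers of embryonic stage had other levels in ventricles without Fendrr.

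The members are linked by one small RNA pathway. Lin28b binds precursors of the let-7 microRNAs and blocks their maturation, and mature let-7 represses many growth genes, with Hmga2, Igf2bp1 and Lin28b itself among the best known targets. The Igf2bp proteins, named after the growth factor mRNA Igf2, bind mRNAs and protect or localise them. The Hmga proteins bind AT-rich DNA and loosen chromatin in dividing embryonic cells. Several of these genes are known to be active in the embryonic heart and to decline as it matures.

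The mature let-7 sequences are shown because their seed, bases 2 to 8 from the 5′ end, decides which mRNAs they can pair with. RefSeq (GRCm38.p6) held 9 such family members, from let-7a-5p to miR-98-5p, and all of them carried 1 seed. 3 of them stand here 5′ to 3′ with the seed in capitals.
let-7a-5p: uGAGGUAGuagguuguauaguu
let-7g-5p: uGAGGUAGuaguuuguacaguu
miR-98-5p: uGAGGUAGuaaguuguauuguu

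The DNA letters that pair with this seed are CTACCTC, and CTACCTCA adds an A opposite the first base of the microRNA. Both were searched on the transcript strand in the longest 3′ untranslated region (3′ UTR) of each gene in GENCODE vM21 (GRCm38), where every 8-base match is also counted as a 7-base match. Each of the 6 members held at least 1 match, against 10.5% of the 10303 genes averaging at least 1 FPKM and an annotated 3′ UTR. An 8-base match was found in 5 of the 6 members, against 3.68% of those genes. The members' 3′ UTRs were 1183 to 6337 bases long and the median of all genes was 1224 bases, so that most members also offered more sequence to match. Per kilobase the members held 0.472 to 1.33 matches, against 0.0707 over all genes together. These are matches of letters in an annotated sequence, and the libraries do not show whether a site was used.

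For Hmga2, Igf2bp1, Lin28b and Igf2bp3, the first 8-base match after the stop codon is shown, as a possible pairing site for let-7. Each is 30 bases of the GRCm38 minus strand in a 3′ UTR, read 5′ to 3′ as in the mRNA, with the 7-base match in capitals.
Hmga2: gggggcgccgacattcaatttCTACCTCag
Igf2bp1: ggcagtgctgtgcgaagtaaaCTACCTCaa
Lin28b: cccttcacccgggcgggaagtCTACCTCat
Igf2bp3: taaacgtgcatttttactcaaCTACCTCag

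The Hmga2 site lies at chr10:120364223-120364252, with its match starting 58 bases after the stop codon. The Lin28b site lies at chr10:45381021-45381050, 36 bases after the stop codon. The Igf2bp1 site lies at chr11:95961777-95961806, 1715 bases after the stop codon, and the Igf2bp3 site at chr6:49086786-49086815, 548 bases after it. Hmga2, Lin28b and Igf2bp1 each held 4 matches, a number reached by 9 of all genes searched. Igf2bp1 had 3 matches of 8 bases, and Hmga2 and Lin28b had 1 each. Igf2bp2, Igf2bp3 and Hmga1 each held 1 match, which was of 8 bases in Igf2bp2 and Igf2bp3 and of 7 in Hmga1.

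**Figure D1:**
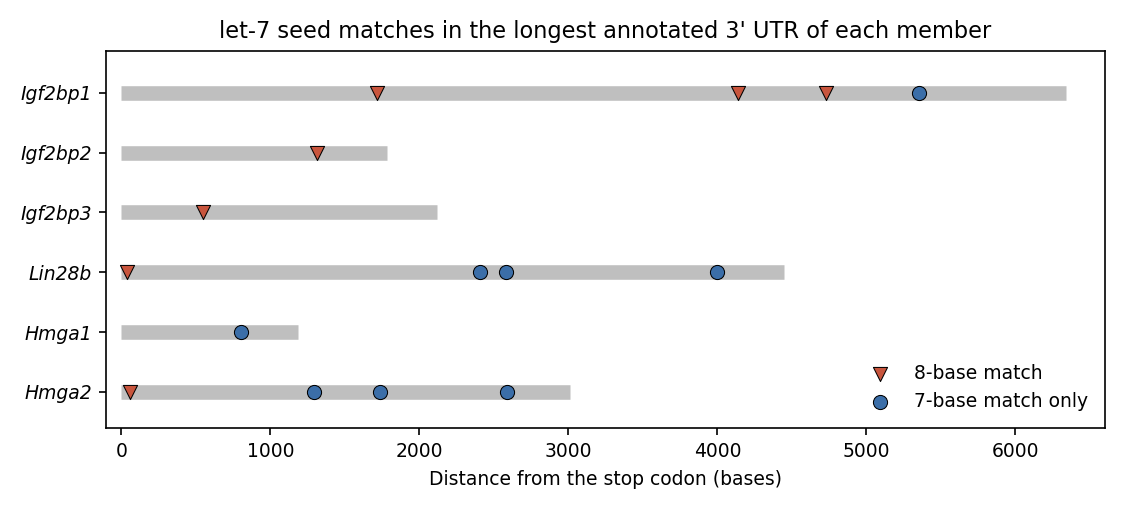
Positions of let-7 seed matches (x axis, bases after the stop codon) in the longest annotated 3′ UTR of each member (grey bar, drawn to its length). Triangles are 8-base matches and circles are 7-base matches only. Hmga2 and Lin28b have an 8-base match that starts within the first 58 bases, and Igf2bp1 has its last 3 matches at 4136 bases or further.

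Levels are in FPKM (fragments scaled to the length of the transcript and to the mapped fragments of the library), a scale per length on which genes can be compared. Total depth is unknown. From the whole-number steps of low values, the KO library was 1.26 times as deep as the WT library, provided that values were scaled to all mapped fragments. Each library was sequenced on its own run, and per the labels the bases of the WT run were called by hand after the run stopped early, so that run and genotype cannot be told apart anywhere below. With 1 library per genotype there is no replicate, no test and no spread, and "higher" or "lower" compares 2 libraries. Fendrr gave no check of the labels, having no row under that symbol and being listed at 0 in both libraries under its older symbol 1110050K14Rik. Of 8 cardiomyocyte markers searched, all 8 were present, with the ventricular light chain Myl2 at 9103 (WT) and 9478 (KO) FPKM.

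All 6 members were present in both libraries and at similar levels, with 5 of the 6 lower in KO and 1 higher. Of the 11349 genes averaging at least 1 FPKM, 67% were lower in KO and 33% higher, so most genes lay on the same side. When the median ratio of all genes was brought to 0, Igf2bp1 and Lin28b were no longer lower in KO, and 3 of the 6 were. No member was 2-fold apart. Ratios were computed as log2((KO + 1)/(WT + 1)), a scale that understates differences of low genes. On that scale 0.467% of all genes lay at a log2 ratio of 1 or more and 0.388% at -1 or less, which is 53 and 44 genes. With the median ratio at 0 these 2-fold counts were 66 and 27. On the same scale no member passed a limit of 1.5-fold, beside 1.54% of genes higher and 3.6% lower. The members' log2 ratios ran from -0.57 to 0.06 with a median of -0.16, beside a median of -0.11 over all genes, and all 6 lay within the range of -0.64 to 0.49 that held the central 95% of genes.

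Igf2bp2, the family member that stays active in adult muscle, was the highest of the 6 in both libraries, at 28.1 (WT) and 29.2 (KO) FPKM. It was the one member with a higher value in KO, with a log2 ratio of 0.06. Igf2bp3, a fetal member of the family, was at 26.6 (WT) and 21.5 (KO) FPKM, a log2 ratio of -0.29. Igf2bp1, also known as the zipcode-binding protein that localises beta-actin mRNA, was at 15.9 (WT) and 14.6 (KO) FPKM, a log2 ratio of -0.12, within 0.01 of the median of all genes. The family sum was 70.5 (WT) and 65.3 (KO) FPKM, and its log2 ratio of -0.11 equalled that of all genes. Igf2bp3 made up 37.7% of the sum in WT and 32.9% in KO, Igf2bp2 39.8% and 44.7%, and Igf2bp1 22.5% and 22.3%. No annotated transcripts of any pair of the family shared an identical stretch of 100 bases, the read length.

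Lin28b, whose 3′ UTR carries 4 of the let-7 matches, was the lowest member, at 2.28 (WT) and 2.13 (KO) FPKM. Its log2 ratio of -0.07 was 0.04 above the median of all genes. For 1997 genes with a mean within 1.5 times that of Lin28b the median was -0.06, and Lin28b stood at percentile 47.9 of their ratios. Among all genes averaging at least 1 FPKM it stood at percentile 14.8 of level in WT and 14.6 in KO. The smallest whole numbers that gave its FPKM ratio, to within 0.001% and before scaling to depth, were 27 KO reads for every 23 WT reads. Its true counts can be a multiple of these. Its relative Lin28a, which blocks let-7 maturation in stem cells and the early embryo, was at 0.132 (WT) and 0.0175 (KO) FPKM. That ratio equalled 1 KO read for every 6 WT reads, a level at which the size of a difference is uncertain. Lin28b therefore made up 94.5% of the Lin28 sum in WT and 99.2% in KO.

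Of the 6 members, Hmga1 had the ratio furthest from that of all genes. It was at 15.8 (WT) and 10.3 (KO) FPKM. The KO value was 65.3% of the WT value and the log2 ratio was -0.57, at percentile 3.98 of all genes. By the deposited FPKM alone it was 1.53 times lower. Among 2559 genes with a mean within 1.5 times that of Hmga1, the central 95% had ratios from -0.62 to 0.39, which includes Hmga1.

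Hmga2, which is more restricted to the embryo, whose loss gives pygmy mice and whose first let-7 match is shown, was at 9.97 (WT) and 8.55 (KO) FPKM. Its log2 ratio of -0.20 lay at percentile 35.1 of all genes, and its annotated transcripts shared no stretch of 100 bases with those of Hmga1. Its pseudogene Hmga2-ps1 was at 1.92 (WT) and 1.45 (KO) FPKM, a ratio that equalled 18 KO reads for every 19 WT reads. How reads that match more than 1 place in the genome were counted is not given in the sources used here, and its part in the levels of both Hmga genes was not tested. The level of Hmga1 was 1.59 times that of Hmga2 in WT and 1.21 times in KO.

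**Figure D2:**
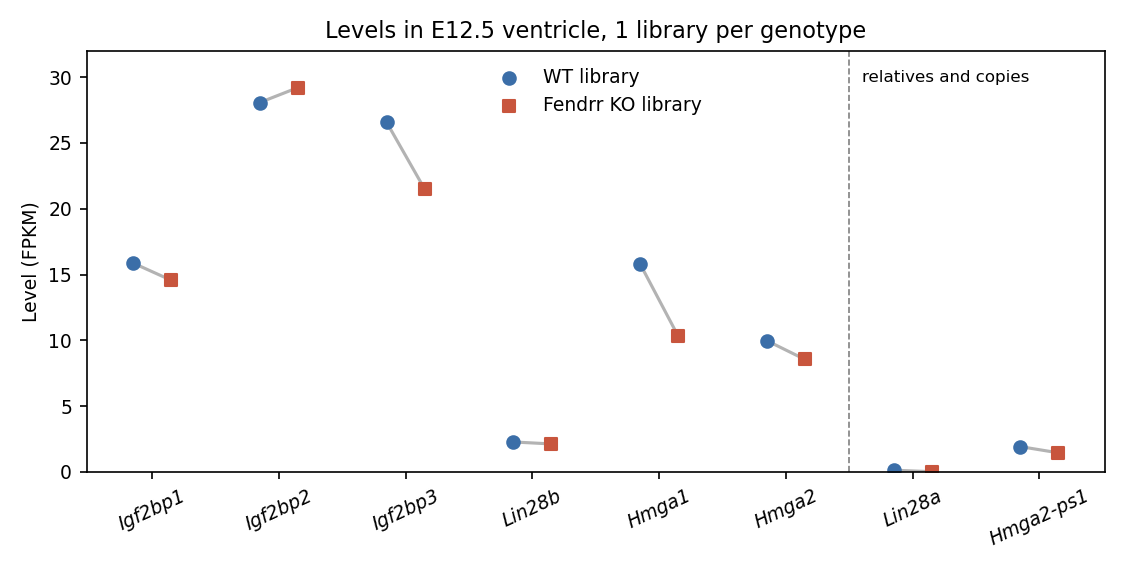
Level in FPKM (y axis, from 0) of the 6 members and, right of the dashed line, of 2 relatives or copies in the WT (circles) and Fendrr KO (squares) library, each point being 1 library of 4 pooled ventricles. Igf2bp2 is the one gene with a higher KO point, and the longest downward lines are those of Hmga1 (15.8 to 10.3) and Igf2bp3 (26.6 to 21.5).

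The order of the levels was Igf2bp2, Igf2bp3, Igf2bp1, Hmga1, Hmga2 and Lin28b in both libraries. In WT, Igf2bp1 and Hmga1 stood side by side at 15.9 and 15.8 FPKM, and in KO they were at 14.6 and 10.3 FPKM. The highest member exceeded the lowest 12.3 times in WT and 13.7 times in KO. Without replicates, no neighbours in this order could be tested for a difference beyond their spread. In pooled tissue, fewer expressing cells and less RNA per cell cannot be told apart.

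**Figure D3:**
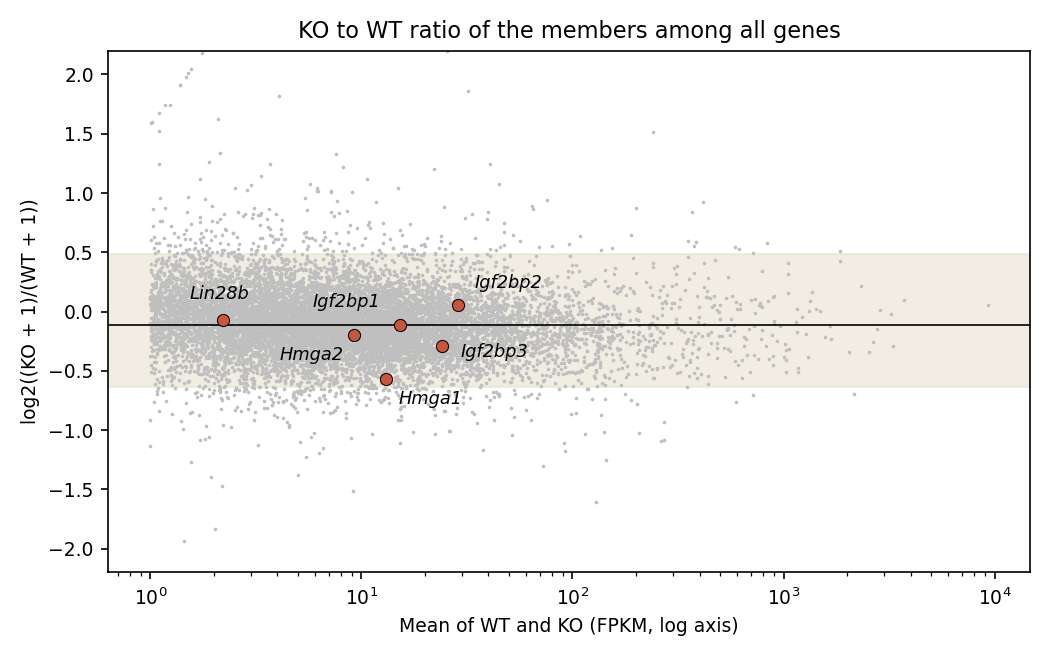
Ratio of KO to WT on the log2(FPKM + 1) scale (y axis) against the mean FPKM of both libraries (x axis, log) for the 11349 genes averaging at least 1 FPKM (grey) and the 6 members (red). The line is the median of all genes (-0.11) and the band their central 95% (-0.64 to 0.49). All 6 members lie inside the band, Hmga1 close to its lower edge. Genes beyond 2.2 in either direction are not drawn.

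Genes with levels most like each member in these 2 libraries, by the sum of absolute differences in log2(FPKM + 1), lay within 0.06 of it. The nearest were Rcan2 and Zzz3 for Igf2bp1, Acat3 and Akap12 for Igf2bp2, Perp and Metap1 for Igf2bp3, Krba1 and Slc16a6 for Lin28b, Magohb and Plekha7 for Hmga1, and Cacna1c and Vwa8 for Hmga2. A likeness over 2 libraries describes a pair of levels only.

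For the genes around the members, a gene's ratio is called above or below when compared with the median of all genes. Of 19 measured genes of let-7 processing and decay, 12 lay above and 7 below, with a list median of 0.07 relative to all genes and none past 2-fold. Without a filter on low values, where the median of all genes is 0, 12 of 21 lay below. Zcchc11, which adds uridines to let-7 precursors, was at 13.2 (WT) and 12.6 (KO) FPKM. Dis3l2, the nuclease that degrades the uridylated precursors, was at 6.56 (WT) and 5.38 (KO) FPKM. Drosha, which cuts the primary transcripts, was at 8.52 and 7.31 FPKM. The gene of this list furthest from all genes was Tarbp2, a partner protein of Dicer, at 12.2 (WT) and 7.81 (KO) FPKM. Others far from all genes were higher in KO, with Tnrc6a at 6.17 (WT) and 7.13 (KO) FPKM and Khsrp at 13.9 and 15.5 FPKM. By FPKM alone, 11 of the 19 genes were lower in KO. The let-7 precursor genes themselves gave no measurement, as 11 of the 12 rows were listed at 0 in both libraries, and Mir98 stood at 1.42 FPKM in the WT library but was listed at 0 in the KO library.

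Known let-7 targets outside the members lay on both sides, 9 above and 11 below among 20 measured, with a list median of -0.02 against all genes. Mycn, a growth-promoting transcription factor of the embryonic heart, was at 14.0 (WT) and 9.51 (KO) FPKM. Plag1, a factor that can drive Igf2 transcription, went the other way, at 3.79 (WT) and 5.04 (KO) FPKM. Among the 10303 genes searched for let-7 matches, the 1083 with at least 1 let-7 match had a median ratio 0.03 above that of all genes, and the 9220 with none had a median 0.01 below it. Both medians lay within 0.03 of that of all genes.

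Of 7 genes for proteins found in Igf2bp1 complexes, 6 lay below and 1 above, with a median of -0.08. Syncrip, an RNA-binding protein of the complex that stabilises Myc mRNA, was at 40.6 (WT) and 30.5 (KO) FPKM, and the abundant cold shock protein gene Ybx1 at 417 and 367 FPKM. Hnrnpu, which binds nuclear RNA, was at 129 and 136 FPKM. The Igf2bp proteins also read the m6A mark on mRNA, and of 15 genes for other readers, writers and erasers of that mark 9 lay above and 6 below, with a median of 0.06. Those below numbered 3 at a minimum mean of 5 FPKM and 12 without a filter, where the median of all genes was -0.13 and 0. The writer gene Mettl3 was at 9.65 (WT) and 9.93 (KO) FPKM.

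Of 11 measured RNAs known to be bound by Igf2bp proteins, 4 lay above and 7 below, with a median of -0.04, and 2 imprinted RNAs were furthest apart. Igf2 was at 671 (WT) and 1004 (KO) FPKM, and H19, a non-coding RNA that binds both Igf2bp proteins and let-7, at 1360 and 41.9 FPKM. Of the 11 measured RNAs only H19 was past 2-fold, and Igf2 had a log2 ratio of 0.58. Actb (beta-actin) was at 483 and 488 FPKM and Cd44, a cell surface receptor, at 12.8 and 8.73 FPKM. No Igf2bp gene differed by more than 1.24 times between these libraries. A link between the levels of the Igf2bp genes and those of H19 or Igf2 was not tested.

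Among 12 other measured high mobility group genes, 5 lay above and 7 below, with a median of -0.06. Hmgn2, which binds nucleosomes, was at 397 (WT) and 290 (KO) FPKM, and Hmgb2, a DNA-bending protein of dividing cells, at 57.9 and 43.8 FPKM. Hmgb1, its more widely expressed relative, was at 451 and 464 FPKM. Hmga1 is known to be active in dividing cells. Of 17 proliferation genes, 14 lay below and 3 above, with a median of -0.22 and a summed level of 1011 (WT) and 782 (KO) FPKM. The replication clamp Pcna was at 177 and 120 FPKM and the mitotic kinase gene Plk1 at 16.6 and 10.2 FPKM. The KO to WT ratio of that sum was 0.774, and the same ratio was 0.653 for Hmga1 and 0.857 for Hmga2. The part of proliferating cells in the values of the Hmga genes was not tested.

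Other oncofetal genes form a list that shares Igf2, H19 and Plag1 with lists described before. Of its 7 measured genes, 6 lay above and 1, H19, lay below, and the list median was 0.38. Those below numbered 2 with a pseudocount of 0.1 and under each of the 3 other scalings, and whether this list differs from the members was not tested. Gpc3, a cell surface proteoglycan, was at 116 (WT) and 140 (KO) FPKM. Afp, the fetal albumin of liver and yolk sac, was at 0.110 (WT) and 16.6 (KO) FPKM. Liver and yolk sac are known to express several of the 6 members. The 9 markers searched for these tissues, Afp among them, summed to 0.832 (WT) and 21.8 (KO) FPKM, and most of the KO sum was Afp. Of these markers 2 averaged at least 1 FPKM, and Alb and Hnf4a were listed at 0 in both libraries. Of other cell types, 7 of 8 mesenchyme markers lay above, with a median of 0.39 and sums of 487 (WT) and 596 (KO) FPKM. So did 6 of 7 measured leukocyte markers, with a median of 0.59, and all 8 searched summed to 55.8 and 84.6 FPKM. Most markers of other heart cells also lay above. These were 7 of 8 endothelial and endocardial (median 0.18), 5 of 8 cardiomyocyte (0.19) and 4 of 6 epicardial markers (0.18). Of 7 measured erythroid markers 5 lay below, while all 10 searched summed to 4851 (WT) and 5205 (KO) FPKM. Among these, Hba-a1 was at 1583 (WT) and 2122 (KO) FPKM and Hba-a2 at 139 and 0 FPKM. The part of these tissues and cells in the members' values was not tested.

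**Figure D4:**
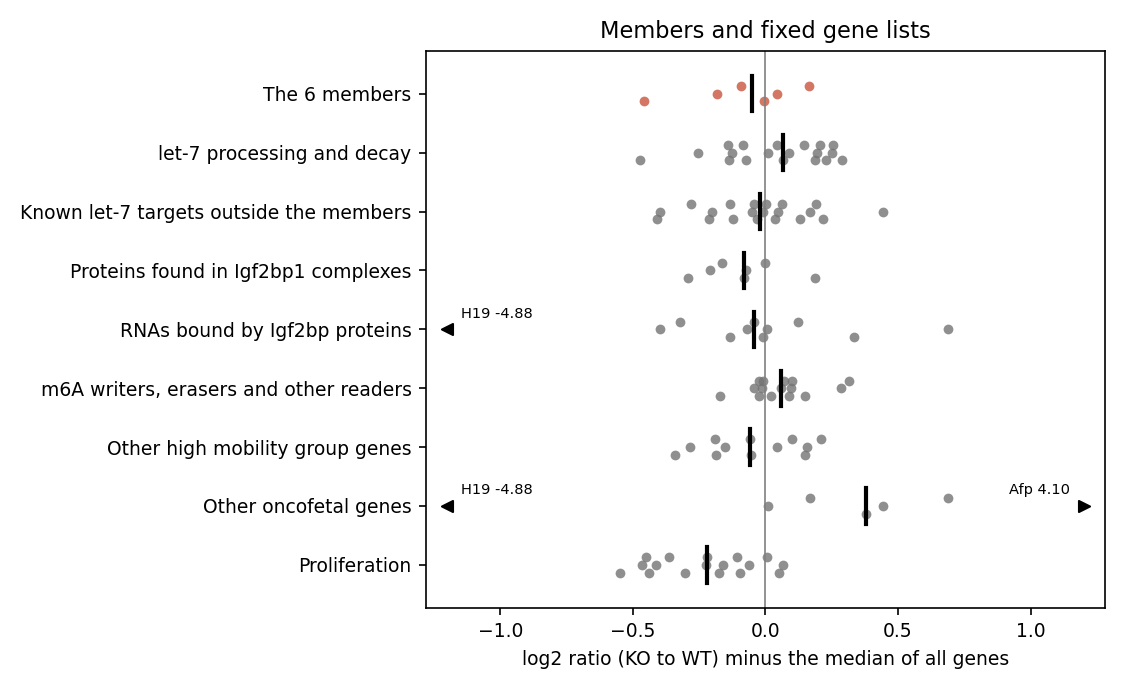
KO to WT log2 ratio minus the median of all genes (x axis) for the 6 members (red) and for the measured genes of 8 lists (grey), each point 1 gene and each bar the median of its row. Triangles at the edge are genes beyond 1.2, with their values. The members' bar lies at -0.05, proliferation genes at -0.22 and other oncofetal genes at 0.38.

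As markers of stage, the members can be set beside the cardiac isoforms that change with maturation. Of 6 fetal isoform genes, 4 lay below and 2 above, with a median of -0.06. Tnni1, the fetal troponin I gene, was at 760 (WT) and 516 (KO) FPKM. Of 8 genes that gain expression in the maturing heart, 6 lay above and 2 below, with a median of 0.27. Ckm, the muscle creatine kinase gene, was at 45.8 and 84.6 FPKM, while Tnni3, the adult troponin I gene, was at 753 and 443 FPKM. The members' own median was -0.05 relative to all genes. Medians near this were found for the fetal isoforms (-0.06), but also for other high mobility group genes (-0.06) and RNAs bound by Igf2bp proteins (-0.04). The members' ratios spanned -0.46 to 0.16 on that scale, and a link to stage was not tested.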

How the data were processed

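RNA of 4 ventricles per genotype (500 ng) went through ribosomal RNA removal and library preparation with 15 PCR cycles, read for 100 bases from 1 end, per the labels' protocols. The deposited values are FPKM per gene symbol, with 1 column per library, per the file headers. The authors used Cufflinks 2.0.2, TopHat2 2.0.6 and Bowtie2 2.0.2 with build mm9, per the submitters' processing notes. Annotation and options are not given in the sources used here. The table holds no coordinates, and sequences and site positions come from GRCm38, a different build.

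Ratios used a pseudocount of 1 FPKM, and medians and counts used genes averaging at least 1 FPKM. Relative depth came from 2213 genes under 0.3 FPKM, where KO over WT, divided by 0.796, matched a ratio of whole numbers of at most 10 (tolerance 0.1%) in 68.9%, against at most 10.6% at shifted steps. Named were the members, relatives, the genes most like them and, from each list, genes of highest mean or furthest ratio, or under 1 FPKM. Zcchc11, Dis3l2 and Drosha were named for their roles, after their values were seen. Some items withheld for evaluation are not reported here. Members and lists were chosen with earlier results of these data known. Steps were tested on simulated data. Python 3.11.15, numpy 2.4.6, pandas 2.3.3 and matplotlib 3.10.9 were used. Alternatives were pseudocounts, scalings, filters and a 1.5-fold limit.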

Additional observations from a re-analysis of the deposited data

How the results depend on the processing

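No paired analysis was possible because WT and KO are single libraries, so none could be dropped. Under 5 alternatives each (pseudocounts of 0.1 and 5, median centring, upper quartile scaling, quantile normalization), Igf2bp2 stayed higher and Igf2bp3, Hmga1 and Hmga2 lower in KO. The sign of Igf2bp1 turned with median centring (0.0044), upper quartile scaling (0.0059) and quantile normalization (0.0079), and that of Lin28b with median centring (0.021) and upper quartile scaling (0.022), so neither gene has a direction that holds. No measured member passed 2-fold under any of the 7 alternatives that kept that limit, Lin28b being unmeasured at a minimum mean of 5 FPKM. Over all genes, 98 were higher and 98 lower at pseudocount 0.1, 16 and 17 at pseudocount 5, and 175 and 408 past the 1.5-fold limit. Lower genes were 27 with median centring and upper quartile scaling and 26 with quantile normalization, and higher genes were 26 at a minimum mean of 5 FPKM. Oncofetal genes below the median numbered 2 with a pseudocount of 0.1 and under each of the 3 scalings, and 4 without a filter. Without a filter, where the median of all genes is 0, 12 let-7 processing genes and 12 m6A genes lay below. At a minimum mean of 5 FPKM, where that median is -0.13, 3 m6A genes lay below. Counts below the median are taken against this moving reference, which was -0.11 in the main setting. What else entered these shifts was not tested.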
